A study of Drosophila melanogaster with 7 samples.

Results

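Some stretches of the Drosophila melanogaster genome were marked in S2 cells by the zinc-finger protein WOC alone, and others by the ubiquitin-binding protein Dsk2 alone. They were selected by overlap. The called intervals of 5 proteins (WOC, Dsk2, HP1c, ROW and Z4) were pooled, intervals sharing at least 1 bp were joined, and joined regions with a single contributing list were kept. This gave 772 WOC-only and 253 Dsk2-only regions, together 1025 of 13044 merged regions. Each of them consisted of 1 called interval. The absence of the other proteins is therefore how these regions were defined and not a result, and it means only that no interval was called there.

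S2 is a cultured cell line derived from fly embryos, and no treatment or mutation is named in the labels. Each protein was immunoprecipitated once, with rabbit antibodies for WOC, Dsk2, HP1c and ROW and a guinea pig antibody for Z4. WOC, ROW and Z4 share 1 input library (chromatin that was not immunoprecipitated), and Dsk2 and HP1c share another. Between WOC and Dsk2 the protein, the library and the input therefore cannot be told apart. With 1 library per protein there is no replicate and no test below. The 95% interval beside a share is exact (Clopper-Pearson), holds counting error alone and treats neighbouring regions as independent. The files give positions without a height or score, so the depth behind each region is unknown.

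WOC (without children) is named after a fly mutant and carries a series of zinc fingers. Together with ROW, a related zinc-finger protein, it accompanies HP1c, which belongs to the heterochromatin protein 1 family but is found in euchromatin, at active genes. Dsk2 belongs to the ubiquilins, which carry a ubiquitin-like domain and a domain that binds ubiquitin, and which are best known for delivering proteins to the proteasome. Z4, also called Putzig, is a chromatin protein of the interbands of polytene chromosomes. The title of the study concerns the relation of Dsk2 to HP1c binding at transcription start sites. The regions described here are those with Dsk2 or WOC and no overlapping call of another protein.

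A few members lay just inside the 1 bp threshold, and a few other intervals just outside it. On the inner side, 10 of 253 Dsk2-only regions lay at most 5 bp from an interval of another list, and for 8 of them that interval was WOC. Likewise 12 of 772 WOC-only regions lay at most 5 bp away, 7 of them from Dsk2 and 4 from ROW. On the outer side, 25 WOC and 11 Dsk2 intervals were not members because they shared between 1 and 5 bp with other lists in all. In full, 5077 WOC and 4495 Dsk2 intervals overlapped other lists. WOC and Dsk2 intervals wholly covered by another are left out of the counts of 25 and 11, but the partners could be wholly covered. The partner was Dsk2 alone for 21 of these 25 and WOC alone for 8 of these 11. Many of these Dsk2 partners and some of these WOC partners were no wider than the bases shared. They lay wholly within the other interval, so such cases need not be contacts at an edge. The closest case was a Dsk2-only region of 7 bp on 2R (5072200 to 5072206), which directly followed a WOC interval of 237 bp ending at 5072199. On X a Dsk2-only region of 20 bp (12648079 to 12648098) followed an HP1c call of 7 bp after 1 base. Among WOC-only regions, one of 36 bp on 3R (25585167 to 25585202) lay 1 base before a ROW interval of 131 bp, and one of 47 bp on X (11907917 to 11907963) lay 2 bases before a ROW interval of 34 bp.

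Both sets were made of very narrow calls. WOC-only regions had a median width of 40 bp (quartiles 16 and 88 bp, range 1 to 383 bp). WOC intervals that overlapped another list had a median of 238 bp. Dsk2-only regions had a median of 28 bp (quartiles 10 and 59 bp, range 1 to 399 bp), and overlapping Dsk2 intervals 227 bp. Under 50 bp were 73.1% of Dsk2-only regions (95% interval 67.2 to 78.5%) and 57.5% of WOC-only regions (53.9 to 61.03%), against 15.3% and 10.6% of the overlapping intervals. Single-base calls numbered 34 and 13. At least 200 bp wide were only 34 WOC-only regions (4.40%) and 13 Dsk2-only regions (5.14%). All WOC-only regions together covered 47.8 kb and all Dsk2-only regions 13.1 kb. A wide interval has more room to meet another list, so the rule can favour narrow members, but how far it did was not tested. Under the same rule, 41.6% of ROW-only and 9.71% of overlapping ROW intervals were under 50 bp. For Z4 these shares were 18.3 and 15.3%, and for HP1c 26.3 and 30.1%.

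The share of a list found alone fell with interval width for WOC and Dsk2, and WOC lay above Dsk2 in each width class up to 399 bp. Of WOC intervals of 1 to 9 bp, 53.5% overlapped no other list (137 of 256, 47.2 to 59.7%). For Dsk2 this was 25.6% (60 of 234, 20.2 to 31.7%). Between 50 and 99 bp the shares were 27.2% for WOC (170 of 626) and 6.29% for Dsk2 (28 of 445). Between 200 and 399 bp they were 1.83% (34 of 1854) and 0.941% (13 of 1382). Of the intervals of 400 bp or more, none of 1125 WOC intervals (upper exact limit 0.327%) and none of 1140 Dsk2 intervals (0.323%) was alone. ROW was also alone less often in its wide intervals, with 83.0% alone at 1 to 9 bp, 38.6% at 50 to 99 bp, 36.8% at 200 to 399 bp and 16.7% at 400 bp or more (541 of 3236). HP1c was alone in 24.0% of its intervals of 1 to 9 bp and in 40.5% of those between 100 and 199 bp, and Z4 in 16.8% and 28.8%. Both fell in wider intervals. At 200 to 399 bp the shares were 21.9% for HP1c and 20.8% for Z4. At 400 bp or more they were 5.60% (15 of 268) and 2.31% (76 of 3284).

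**Figure D1:**
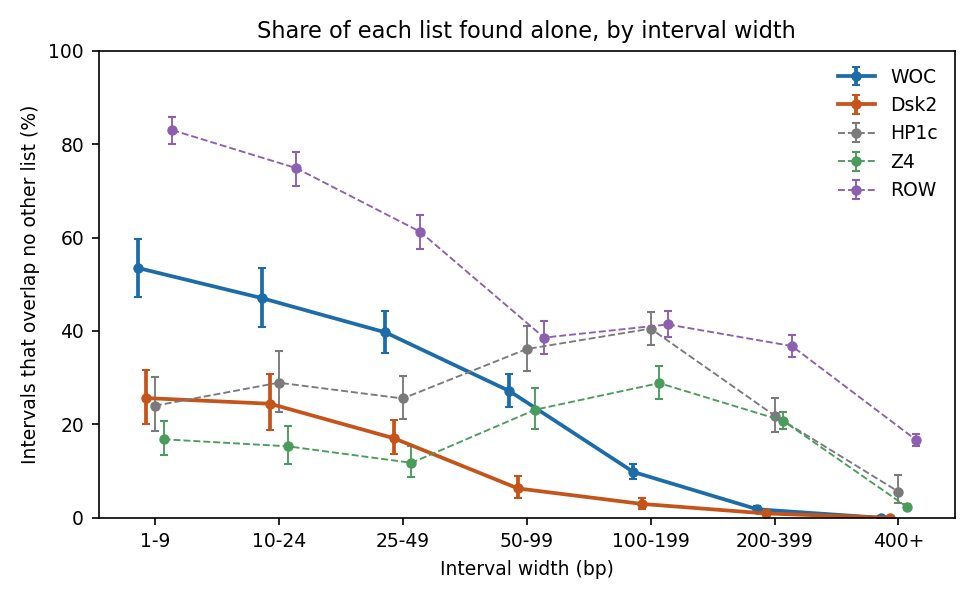
The x axis gives 7 classes of interval width in bp and the y axis the percentage of a protein's intervals in that class that overlap no other list, with exact 95% intervals as bars. WOC falls from 53.5% and Dsk2 from 25.6% in the narrowest class to 0 in the widest, and ROW (dashed) falls from 83.0 to 16.7%. HP1c and Z4 (dashed) are higher at 100 to 199 bp than at 1 to 9 bp and fall to 5.60 and 2.31% in the widest class.

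The numbers of the sets depended on which intervals of the lists were used. The WOC list holds 5849 intervals and the Dsk2 list 4748. WOC-only regions were the more numerous, 772 against 253, or 13.2% of the WOC list against 5.33% of the Dsk2 list. With each list cut to its 2711 widest intervals, the length of the HP1c list, 181 WOC-only and 191 Dsk2-only regions were found, and WOC-only regions were no longer the more numerous. This setting changes the list lengths and also drops narrow intervals, with a different width limit for each list, and these changes cannot be told apart. Without the Z4 list the numbers were 1226 and 412.

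ROW was the nearest other list for 4 of the 5 widest WOC-only regions. The widest WOC-only region spanned 383 bp on 3L (3384663 to 3385045), 731 bp from a ROW call of 1 bp. The second measured 372 bp on X (10218884 to 10219255), with a ROW call of 3 bp 609 bp away, Z4 at 630 bp and Dsk2 at 712 bp. The third measured 353 bp on unplaced sequence (Uextra, 10241371 to 10241723). The fourth was 341 bp on 2R (14692249 to 14692589), and the fifth was 336 bp on X (13114622 to 13114957), 6217 bp from any other list.

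Among Dsk2-only regions the widest was 399 bp on 3R (25593074 to 25593472). It lay 506 bp from a ROW interval of 2400 bp that belonged to a merged region with Dsk2, WOC and Z4. The next were 326 bp on 3R (7604255 to 7604580), 685 bp from a WOC-only region, and 270 bp on 2R (17592141 to 17592410), 119 bp from ROW and 144 bp from WOC. A region of 269 bp on X (9477834 to 9478102) lay 36 bp from ROW and 154 bp from Z4. The fifth, 264 bp on X (5454645 to 5454908), was 41926 bp from any other list and 6123 bp from the next Dsk2 interval.

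Dsk2-only regions lay nearer to other proteins than WOC-only regions did. The gap, counted as the bases between 2 intervals, to the nearest interval of any other list had a median of 147 bp for Dsk2-only regions (quartiles 43 and 1315 bp) and of 768 bp for WOC-only regions (quartiles 194 and 2851 bp). Within 100 bp lay another list for 40.3% of Dsk2-only regions (34.2 to 46.6%) and for 16.3% of WOC-only regions (13.8 to 19.1%). Within 300 bp the shares were 62.5% (56.2 to 68.4%) and 31.1% (27.8 to 34.5%). Within 5000 bp they were 82.6% (77.4 to 87.1%) and 82.0% (79.1 to 84.6%). Such nearness was not particular to Dsk2-only regions. Median gaps were 240 bp for HP1c-only, 510 bp for ROW-only and 986.5 bp for Z4-only regions. Within 500 bp of another list were 64.8% of Dsk2-only, 64.7% of HP1c-only, 49.5% of ROW-only, 40.3% of Z4-only and 40.3% of WOC-only regions. The order of the Dsk2-only and WOC-only medians turned in 5 of the 13 alternatives. It was 2097 bp for Dsk2-only and 1541 bp for WOC-only regions with lists of equal length, and 1287 and 1170 bp with the widest 50% of each list. It was 1456 and 1268 bp, or 3524 and 1678 bp, for the regions still single once intervals up to 150 or 300 bp apart were joined. With only the lists of the same input, it was 7951 and 858.5 bp. There Dsk2 was set against HP1c alone (2711 intervals) and WOC against ROW and Z4 (8999 and 7491 intervals). The lists compared thus differ in number and length, and that order does not compare like with like.

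Gaps of Dsk2-only regions were mostly under 200 bp. Of the 253 regions, 69 had a gap under 50 bp, 33 a gap of 50 to 99 bp and 43 a gap of 100 to 199 bp. Of the rest, 13 followed at 200 to 299 bp, 4 at 300 to 399 bp, 2 at 400 to 499 bp, 22 at 500 to 999 bp, 23 at 1000 to 4999 bp, 16 at 5000 to 9999 bp and 28 at 10000 bp or more. The classes differ in width, so their counts cannot be read as one curve. WOC-only regions numbered 42, 40 and 33 of 772 in the 3 classes from 200 to 499 bp and 121 from 500 to 999 bp. Median width was 29 bp for Dsk2-only regions under 50 bp from another list and 36 bp for those at 10000 bp or more, and 39.5 and 31.5 bp for WOC-only regions. Within 500 bp of another list were 65.4% of Dsk2-only and 38.1% of WOC-only regions among those narrower than 50 bp, and 60.0% and 51.3% among those of 100 bp or more.

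**Figure D2:**
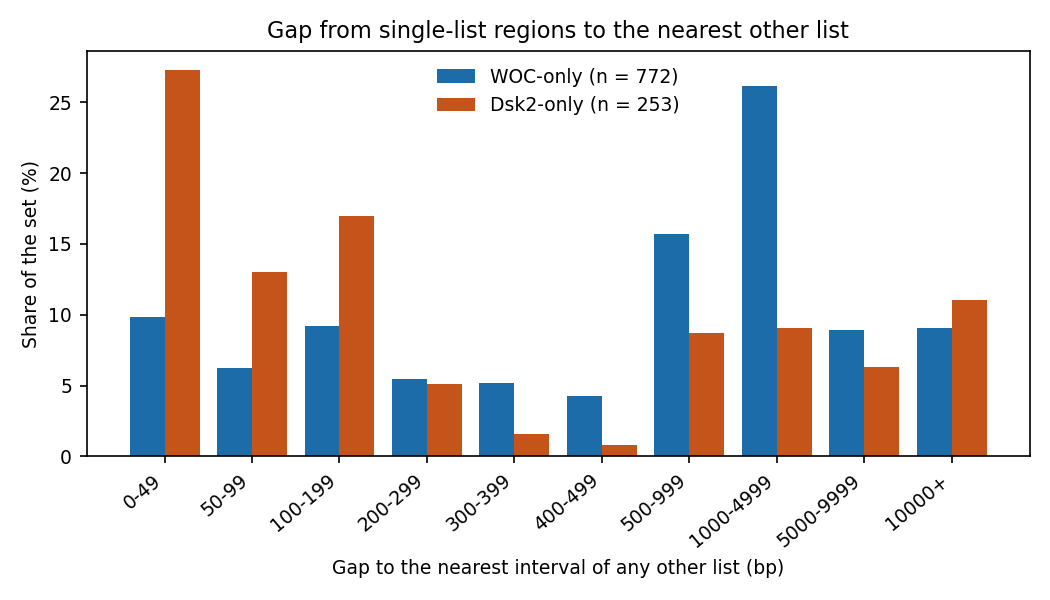
Bars give the percentage of each set (772 WOC-only and 253 Dsk2-only regions) whose gap to the nearest interval of any other list falls in the class on the x axis, in bp, where the classes differ in width. Dsk2-only bars are high below 200 bp and low from 300 to 499 bp, and WOC-only bars are spread to 1000 to 4999 bp, where 26.2% of the set lies.

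Dsk2-only regions lay more often than WOC-only regions near each of the 3 lists common to both sets, and their own highest share was toward WOC. A WOC interval lay within 300 bp of 96 Dsk2-only regions (37.9%, 31.9 to 44.2%), and a Dsk2 interval within 300 bp of 88 WOC-only regions (11.4%, 9.24 to 13.9%). In both counts, 71 are the same pairs of a WOC-only and a Dsk2-only region, set against 253 and 772 regions. These 2 shares therefore differ largely through the sizes of the sets. The 3 remaining lists are the same for both sets. ROW lay within 300 bp of 30.0% of Dsk2-only regions (24.5 to 36.1%) and 17.5% of WOC-only regions (14.9 to 20.4%). Z4 lay there for 16.6% (12.2 to 21.8%) and 4.15% (2.85 to 5.80%), and HP1c for 12.6% (8.81 to 17.4%) and 4.92% (3.51 to 6.69%). With these 3 lists pooled, the shares were 39.9% (33.8 to 46.2%) of Dsk2-only and 23.3% (20.4 to 26.5%) of WOC-only regions. HP1c and Dsk2 share an input, and ROW, Z4 and WOC share the other.

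**Figure D3:**
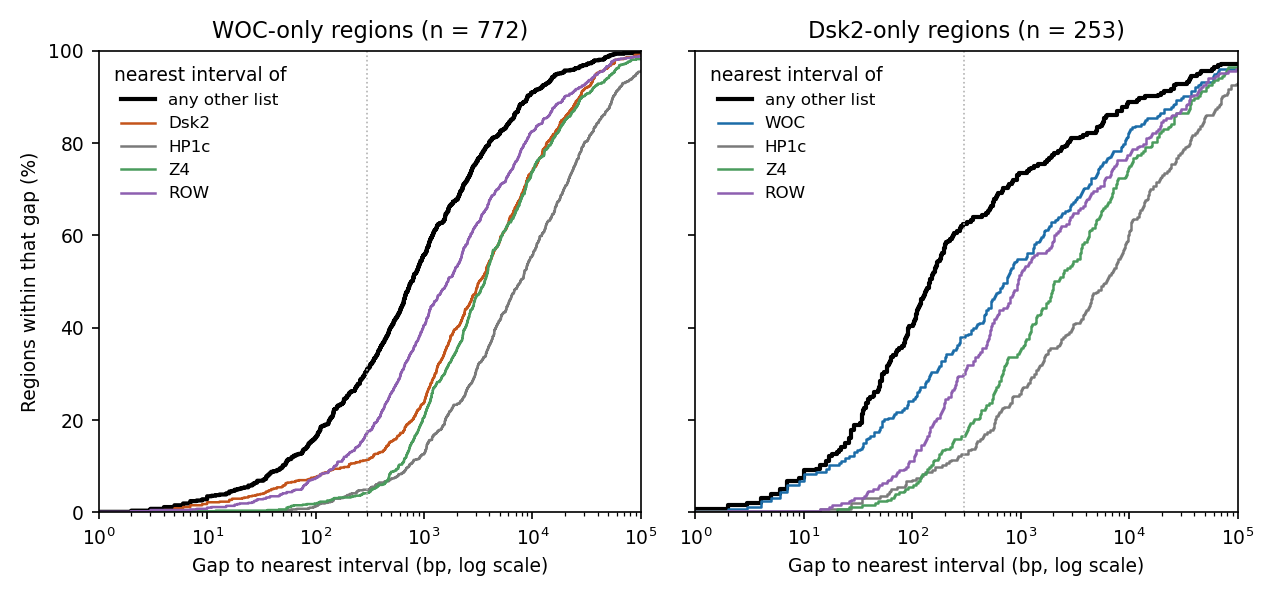
Curves give the percentage of WOC-only regions (left) and Dsk2-only regions (right) with an interval of the named list within the gap on the x axis (bp, log scale, gaps of 0 drawn at 1), and the dotted line marks 300 bp. The black curve for any other list reaches 31.1% at 300 bp on the left and 62.5% on the right, and the WOC curve on the right is the highest single list there, at 37.9%.

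The single nearest interval was most often WOC for Dsk2-only regions and ROW for WOC-only regions. It was WOC for 104 of 253 Dsk2-only regions (41.1%, 35.0 to 47.4%), while WOC makes up 23.3% of the intervals in the other 4 lists. ROW followed with 81, Z4 with 37 and HP1c with 31. The median gap was 68 bp where WOC was nearest, 109 bp for HP1c, 196 bp for ROW and 2668 bp for Z4. For WOC-only regions ROW was nearest in 401 of 772 (51.9%, 48.4 to 55.5%), where it makes up 37.6% of the other intervals. Dsk2 was nearest for 178, Z4 for 106 and HP1c for 87. Z4 was thus nearest to 13.7% of WOC-only and 14.6% of Dsk2-only regions, although it supplies 31.3% and 29.9% of the other intervals. ROW was also nearest for 57.0% of HP1c-only (443 of 777) and 72.5% of Z4-only regions (683 of 942). There it supplies 33.2% and 40.3% of the other intervals. Having ROW nearest was therefore not particular to WOC-only regions.

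The nearest neighbour was itself a single-list region for 57.3% of WOC-only regions (442 of 772) and 57.3% of Dsk2-only regions (145 of 253). The same held for 52.9% of Z4-only, 47.1% of HP1c-only and 32.1% of ROW-only regions. ROW-only regions were the nearest for 264 WOC-only regions, ahead of Dsk2-only regions (76), regions with ROW and Z4 (76) and HP1c-only regions (70). For Dsk2-only regions the most frequent were WOC-only (72), ROW-only (37), ROW with Z4 (27) and HP1c-only regions (26). Merged regions with all 5 proteins were nearest to 39 WOC-only and 18 Dsk2-only regions. The kinds differ in number, so these counts do not measure a preference. Of the 13044 merged regions, 3437 were ROW-only, 1861 held ROW with Z4 and 921 held all 5 proteins. Z4-only regions numbered 942, HP1c-only 777, WOC-only 772 and Dsk2-only 253. Single-list regions are thus a large part of all merged regions, so 57.3% cannot be read as a trait of the members.

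In 71 cases a Dsk2-only and a WOC-only region formed a near pair within 300 bp. They involved 28.1% of the Dsk2-only set (22.6 to 34.03%) and, as 71 different regions, 9.20% of the WOC-only set (7.25 to 11.5%). The number barely grew with distance, to 73 Dsk2-only regions within 500 bp and 78 within 1000 bp. The gap in a pair had a median of 44 bp (quartiles 16 and 110.5 bp, range 2 to 275 bp). Each pair spanned a median of 161 bp from end to end. The Dsk2 call of a pair had a median width of 24 bp and the WOC call 49 bp, and in 31 of 71 pairs both were under 50 bp. WOC lay at the lower coordinate in 41 of 71 pairs (57.7%, 45.4 to 69.4%).

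The calls of the near pairs were narrower, and their midpoints farther apart, than those of overlapping Dsk2 and WOC calls. There were 644 merged regions made of exactly 1 Dsk2 and 1 WOC interval. Their calls had median widths of 120.5 bp for Dsk2 and 151 bp for WOC, and midpoints a median of 27.25 bp apart. The midpoints of the near pairs lay a median of 112.5 bp apart (quartiles 54.25 and 166.25 bp). By the rule such pairs cannot overlap, while the calls of the 644 regions must. The contrast in midpoints and widths is therefore partly set by the selection. HP1c, Z4 or ROW lay within 500 bp of the Dsk2 member in 26 of 71 pairs (36.6%, 25.5 to 48.9%).

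**Figure D4:**
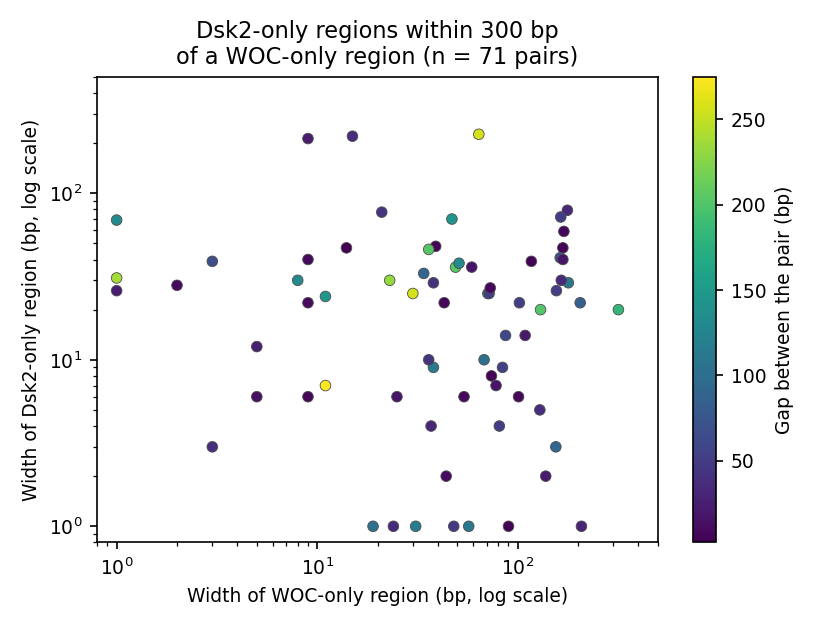
Each of the 71 points is a Dsk2-only region and the WOC-only region within 300 bp of it, with the WOC width on the x axis and the Dsk2 width on the y axis (bp, log scales) and the gap between them as colour. WOC widths reach 318 bp and Dsk2 widths 226 bp, with medians of 49 and 24 bp.

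The closest pairs were 2 to 4 bases apart. On 3R a Dsk2 call of 47 bp (3575906 to 3575952) and a WOC call of 14 bp (3575955 to 3575968) were separated by 2 bases, with ROW 33084 bp and HP1c 136522 bp from the Dsk2 call. On 2L a Dsk2 call of 48 bp (4906879 to 4906926) lay 4 bases before a WOC call of 39 bp (4906931 to 4906969), with ROW 15206 bp away. On 3L a Dsk2 call of 39 bp (9455330 to 9455368) lay 4 bases before a WOC call of 117 bp (9455373 to 9455489), with ROW 1018 bp and Z4 1075 bp away. The first and second pairs had no HP1c, ROW or Z4 interval within 10000 bp of the Dsk2 call, and the third also had HP1c 4361 bp away. As close as the 2L and 3L pairs was another on 3R, a Dsk2 call of 1 bp (18194622) 4 bases before a WOC call of 90 bp (18194627 to 18194716), with ROW 225 bp and Z4 433 bp away. Over all 71 pairs the median gap from the Dsk2 call to ROW was 957 bp, so the first and second pairs lay farther from ROW than most.

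Dsk2-only regions outside the near pairs lay more often beside HP1c and Z4 than those in pairs, while the intervals for ROW overlapped. Of these 182 regions, 39.6% had ROW within 500 bp (32.4 to 47.1%), 28.0% had Z4 (21.6 to 35.1%) and 21.4% had HP1c (15.7 to 28.1%). In the pairs the shares were 31.0% (20.5 to 43.1%), 11.3% (4.99 to 21.0%) and 7.04% (2.33 to 15.7%). The intervals for Z4 and HP1c nearly met. By the rule, the WOC call of a pair overlaps no HP1c, Z4 or ROW interval. Of 96 Dsk2-only regions within 300 bp of any WOC interval, 71 were in pairs. The rest lay beside WOC intervals that overlap other lists and were counted outside the pairs. The contrast is therefore partly set by the selection. For WOC-only regions the shares outside the pairs were the lower ones, 25.2%, 8.27% and 7.13%, against 31.0%, 14.1% and 8.45% in pairs, with overlapping intervals for each list.

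Crowded surroundings were more frequent for Dsk2-only regions. Within 500 bp, 13 of 253 had intervals of all 4 other proteins (5.14%, 2.76 to 8.63%), against 2 of 772 WOC-only regions (0.259%, 0.0314 to 0.933%). No other list lay within 500 bp of 89 Dsk2-only regions (35.2%, 29.3 to 41.4%) and of 461 WOC-only regions (59.7%, 56.2 to 63.2%). Another list was present on both sides within 1000 bp for 38.3% of Dsk2-only (32.3 to 44.6%) and 14.0% of WOC-only regions (11.6 to 16.6%). This share was 35.0% for HP1c-only, 12.5% for ROW-only and 10.8% for Z4-only regions. Among surroundings with a single other list, WOC led for Dsk2-only regions (49 regions) and ROW for WOC-only regions (117 regions).

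Members were also placed relative to the other intervals of their own protein. The smallest gap between intervals of 1 protein was 300 bp in each list, so no closer own neighbour can exist in the files. Another Dsk2 interval lay within 500 bp of 16.2% of Dsk2-only regions (41 of 253, 11.9 to 21.3%), and in 33 of these 41 it overlapped other lists. The corresponding share among Dsk2 intervals that overlap other lists was 10.4%. Within 5000 bp the order turned, with 58.1% of Dsk2-only regions (51.8 to 64.3%) and 62.8% of overlapping Dsk2 intervals (61.3 to 64.2%). For WOC the shares within 500 bp were 6.99% of WOC-only regions (54 of 772, 5.30 to 9.03%) and 10.7% of overlapping WOC intervals (9.84 to 11.6%). Within 5000 bp they were 62.3% and 69.3%.

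A smaller part of each set stood far from all other proteins. More than 5000 bp from any other list were 139 WOC-only regions (18.0%, 15.4 to 20.9%) and 44 Dsk2-only regions (17.4%, 12.9 to 22.6%). Their median widths were 34 and 33.5 bp. More than 10000 bp away were 70 WOC-only regions, of which 2 had another WOC interval within 10000 bp, and 28 Dsk2-only regions, of which 4 had another Dsk2 interval within that distance. Of these 28 Dsk2-only regions, 10 lay on X, 7 on 3R and 8 on unplaced or heterochromatic sequence. The 3 farthest Dsk2-only regions were all on unplaced sequence. They lay on U (2769129 to 2769152) and on Uextra (28604078 to 28604124 and 28549845 to 28549872). The 3 farthest WOC-only regions were those on Uextra from 10241371 and from 20101040 to 20101052, and 1 on X (18944 to 18966), 120505 bp from the nearest ROW call. A distance on unplaced sequence depends on the order in which that sequence was joined.

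Most WOC-only and Dsk2-only regions had no other member of their set within 10000 bp. Within 10000 bp of another member of the same set lay 28.5% of WOC-only regions (220 of 772, 25.3 to 31.8%) and 16.6% of Dsk2-only regions (42 of 253, 12.2 to 21.8%). The larger set is also the denser one, so the shares cannot be compared as such. When members at most 10000 bp apart were chained, 552 WOC-only regions stood alone and the rest formed 88 chains of 2, 12 of 3 and 2 of 4 members. Dsk2-only regions formed 13 chains of 2, 4 of 3 and 1 of 4, with 211 alone.

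The chain with most Dsk2-only regions was compact. It held 4 regions of 2 to 44 bp within 1994 bp on 2L (16519845 to 16521838), each between 62 and 126 bp from another list, beside 3 HP1c, 2 Z4, 2 ROW and 1 WOC interval. The next had 3 regions of 1 to 7 bp on X (8785228 to 8791216), among 5 WOC, 5 Z4, 4 ROW and 3 HP1c intervals. The third held 3 regions of 9 to 20 bp on 3R (25033958 to 25041054).

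The 2 largest WOC-only chains held 4 regions each. One spanned 10.9 kb on X (3633881 to 3644792), with members of 4 to 54 bp and 5 HP1c, 2 Dsk2 and 2 ROW intervals but no Z4. The other spanned 17.8 kb on 2R (17383797 to 17401611), with members of 9 to 83 bp. The tightest chain of 3 lay on 3L (11342514 to 11344055). It covered 1542 bp, had members of 2 to 193 bp, and held no interval of any other protein. The nearest other list was 2208 bp from its closest member.

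Along the genome, single-list regions occurred on all 5 large arms. WOC-only regions numbered 162 on X, 158 on 2L, 124 on 2R, 160 on 3L and 157 on 3R. Dsk2-only regions numbered 62, 47, 36, 40 and 57. As a share of all WOC intervals on an arm, WOC-only regions made up 14.5% on X (12.5 to 16.7%), 14.8% on 2L and 14.6% on 3L, against 11.5% on 2R (9.67 to 13.6%) and 11.7% on 3R (10.03 to 13.5%). For Dsk2 the share was 6.91% on X (5.34 to 8.77%), 5.60% on 2L, 5.12% on 3R, 4.59% on 3L and 4.06% on 2R (2.86 to 5.57%). The lowest share was on 2R for both proteins, and its exact interval overlapped that of X for both.

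X held 24.5% of the Dsk2-only set (19.3 to 30.3%) and 18.9% of the Dsk2 list (17.8 to 20.04%). It held 21.0% of the WOC-only set (18.2 to 24.03%) and 19.1% of the WOC list (18.1 to 20.2%). Over the 13 alternatives, the share on X ran from 19.7% (only lists of the same input) to 35.5% (widest 50% of each list, 93 regions) for Dsk2-only and from 19.4 to 25.03% for WOC-only regions. Of the Dsk2-only regions on X, 54.8% lay within 500 bp of another list (41.7 to 67.5%), against 70.0 to 72.3% on the other 4 large arms. The exact interval of each of those arms overlapped that of X. For WOC-only regions this share was between 37.6% on 3R and 41.9% on 2R, and the share in near pairs was between 8.13 and 9.88%.

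Chromosome 4 and the heterochromatic sequences held few members. On chromosome 4, the small autosome rich in heterochromatin, 1 of 54 WOC intervals (1.85%, 0.0469 to 9.89%) and 2 of 52 Dsk2 intervals (3.85%, 0.469 to 13.2%) were alone. On heterochromatic and unplaced sequence 10 of 88 WOC intervals (11.4%, 5.59 to 19.9%) and 9 of 82 Dsk2 intervals (11.0%, 5.14 to 19.8%) were. Of these 9 Dsk2-only regions, 6 lay on Uextra, 2 on 2RHet and 1 on U. The upper limit for WOC on chromosome 4 lay below the 13.2% of the full WOC list that was alone, while the other 3 intervals included the share of the full list.

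**Figure D5:**
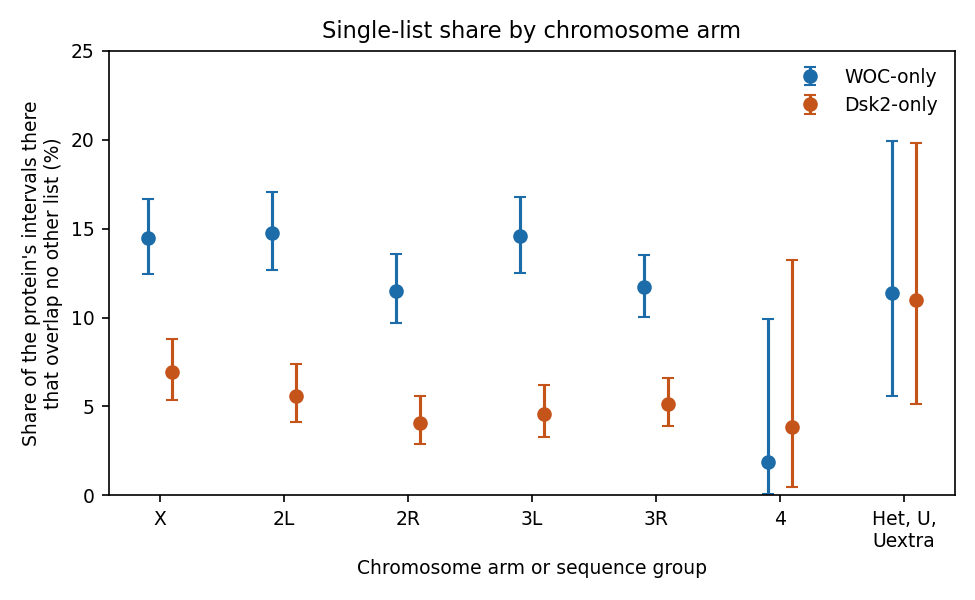
The y axis gives the percentage of a protein's intervals on each arm or sequence group (x axis) that overlap no other list, with exact 95% intervals as bars. WOC lies between 11.5 and 14.8% and Dsk2 between 4.06 and 6.91% on the 5 large arms, and the bars for chromosome 4 and for the heterochromatic and unplaced sequences are wide.

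The distance allowed between intervals decided how many regions counted as single. When intervals up to 150 bp apart were joined, 600 of the 772 WOC-only regions (77.7%) and 125 of the 253 Dsk2-only regions (49.4%) still stood alone. Of the Dsk2-only regions, 57 became regions of Dsk2 with WOC only, 16 became Dsk2 with ROW and Z4, and 12 became Dsk2 with HP1c. In all, 89 (35.2%) joined a region with WOC. Of the WOC-only regions, 55 joined Dsk2 only, 55 ROW only and 15 HP1c only. With 300 bp allowed, 535 WOC-only and 95 Dsk2-only regions remained, and 30 of the former Dsk2-only regions (11.9%) had joined regions with all 5 proteins.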

How the data were processed

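ChIP-Seq regions of WOC, Dsk2, HP1c, ROW and Z4 in S2 cells were used, 1 list per protein. The deposited files give a chromosome, a start and an end per region and no score. Regions were called against input, per the series' design text. CASAVA 1.8, FastQC 0.9.3, Bowtie 0.12.5 and the dm3 build are named in the submitters' processing notes. The sources used here do not name the peak caller or its threshold. Regions with an identical start and end occur, so both ends were counted as part of a region. Whether positions start at 0 or 1 is not stated, so a position could be off by 1 bp. No genome or annotation of this build was used, so no genes are assigned and no sequence is shown.

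Merging, gaps, widths and chains were computed with Python 3.11.15, NumPy 2.4.6, SciPy 1.17.1 and pandas 2.3.3 (figures with matplotlib 3.10.9). Merging and gaps were tested on simulated data with planted overlaps and gaps. Named regions were the 5 widest, 3 closest and 3 farthest members of each set, the 3 chains with most members and the 3 closest pairs. The sets, limits and measures were chosen with earlier results of these data known. The alternatives were other interval ends, joining distances, overlap rules, width limits, list lengths and sets of lists, and the 5 large arms alone. Intervals of a fixed 200 bp were an alternative chosen after seeing the data.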

Additional observations from a re-analysis of the deposited data

How the results depend on the processing

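Of 154 comparisons of a value with an alternative, 81 stayed within 1.5 times the count or within the 95% interval of the share or median. End-exclusive intervals and the 5 large arms alone moved none. No paired analysis was possible because each protein has 1 library. The unknown depth limits what the absence of a call can mean.

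Joining intervals up to 150 bp apart left 125 Dsk2-only regions, with a median gap of 1456 bp, 28.8% within 500 bp of another list and 9.60% within 10 kb of another member. For WOC-only regions these 3 values were 1268 bp, 23.2% and 22.0%. Joining up to 300 bp left 95 Dsk2-only regions, with 3524 bp, 6.32% and 8.42%, and gave 1678 bp, 13.8% and 19.6% for WOC-only regions. Such joining removes the near members by construction.

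When overlap needed 50 bp or a midpoint inside, WOC-only regions had a median width of 53 bp and a median gap of 437 bp, with 52.2% within 500 bp and 32.1% within 10 kb. Dsk2-only regions had 40 bp, 55 bp and 74.8%. This rule also admitted intervals that overlapped another list by under 50 bp, giving 965 WOC-only and 353 Dsk2-only regions. Such added members have no bases between them and another list. The smaller median gaps and higher shares within 500 bp are therefore set by construction and do not show greater nearness. Without intervals under 50 bp, 498 WOC-only regions had a median width of 102 bp, a median gap of 1013.5 bp, 33.1% within 500 bp and 20.1% within 10 kb. The 111 Dsk2-only regions had 119 bp, 353 bp, 54.95% and 3.60%.

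With the widest 50% of each list, 264 WOC-only regions had a median width of 257 bp, a median gap of 1170 bp, 29.5% within 500 bp, 12.9% within 10 kb and 24.2% on X. The 93 Dsk2-only regions had 269 bp, 1287 bp, 35.5%, 9.68% and 35.5%. With lists of equal length, 181 WOC-only regions had 274 bp, 1541 bp, 26.5%, 9.94% and 24.3%. Dsk2-only regions then had a median width of 224 bp, a median gap of 2097 bp and 20.9% within 500 bp.

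Without ROW, WOC-only regions had a median gap of 1132 bp, 30.8% within 500 bp and 35.2% within 10 kb. Without Z4, there were 1226 WOC-only regions with a median gap of 497 bp and 50.2% within 500 bp, and 412 Dsk2-only regions with 71.1%. Without HP1c the median gap of Dsk2-only regions was 205 bp. With only the lists of the same input there were 1758 WOC-only regions, with a median width of 113 bp, 36.6% within 500 bp, 52.05% within 10 kb and 25.03% on X. There were 3173 Dsk2-only regions, with a median width of 151 bp, a median gap of 7951 bp, 7.34% within 500 bp and 67.1% within 10 kb. That setting drops WOC from the lists compared with Dsk2 and the reverse. It leaves HP1c alone for Dsk2 but ROW and Z4 for WOC, so the values of the sets are not on a like footing. With every interval set to 200 bp, WOC-only regions had a median gap of 575.5 bp and 46.3% within 500 bp. Apart from settings that change the construction as stated, the cause was not tested.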
